A study of Homo sapiens with 6 samples.

Results

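In human MM.1S myeloma cells carrying hairpins against IRF3, the libraries labelled shRNA 2 were compared directly with the libraries labelled shRNA 1. The comparison covers 12977 genes of 33095, those present in both deposited tables with a mean of at least 50 normalised read counts over the 6 libraries. For each gene it is the log2 fold change of shRNA 2 over scramble minus that of shRNA 1 over scramble, so that the scramble level cancels. Positive differences mean higher expression in the libraries labelled shRNA 2. On the border of the selection, CNTNAP2 (mean 49.94, difference -0.78) and CYB5R2 (mean 49.95, difference -0.69) fell just outside, and HDX (mean 50.06, difference 0.40) and LOC101927752 (mean 50.06, difference 0.060) just inside.

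MM.1S is an established line of multiple myeloma, the cancer of antibody-secreting plasma cells, and was grown in RPMI 1640 with fetal bovine serum. All 3 arms received lentivirus, which carried a scrambled control hairpin, shRNA 1 against IRF3 or shRNA 2 against IRF3. No other agent and no time after transduction is given, and no label tells if the 2 libraries of an arm are 2 cultures or 1. Poly(A)-enriched RNA was sequenced. The spread behind each p-value is a single value per gene from the authors' fits over all 6 libraries, scramble included. It is not the spread within the hairpin arms alone, and it may be technical.

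An shRNA is processed by the cell's own RNA interference machinery into a short guide that lowers the messenger RNA it pairs with. A second hairpin against the same target shares the target and not the guide sequence, so the direct contrast holds the target constant only as far as both hairpins lower it. IRF3 is a transcription factor that cytoplasmic nucleic acid sensors activate through the kinase TBK1, after which it induces type I interferon and chemokine genes. Myeloma cells in addition depend on a plasma cell programme headed by IRF4, PRDM1 and XBP1, on D-type cyclins, and on the protein folding and degradation that antibody secretion demands.

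The target was compared first. IRF3 (chromosome 19, 49659569 to 49665875, minus strand, GRCh38) had a rebuilt mean of 2809 normalised counts in scramble, 974 in shRNA 1 and 2476 in shRNA 2. These arm means were reconstructed from the deposited mean and the deposited fold changes, and single libraries cannot be shown. Rebuilt means are given throughout in the order scramble, shRNA 1 and shRNA 2, and values after ± are SEs. IRF3 was 2.54-fold higher (95% interval 2.21 to 2.93) in shRNA 2 than in shRNA 1, a log2 difference of 1.35 ± 0.10 (SE) with an adjusted p of 8.65e-36. In the authors' deposited tables IRF3 was at -1.53 ± 0.10 (SE) over scramble with shRNA 1 and at -0.18 ± 0.10 with shRNA 2, so the target fell with the first hairpin and a fall of that size was not seen with the second. Every direction below is that of the libraries labelled shRNA 2 relative to those labelled shRNA 1, between arms with unequal IRF3, and either arm may be the one that departed from scramble. BCL2L12, a BCL2 family gene whose 5′ end overlaps that of IRF3 on the other strand (chromosome 19, 49665142 to 49673916), differed by -0.29 ± 0.17 (95% interval -0.63 to 0.047, adjusted p = 0.165) and was not called.

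A gene was called at an adjusted p below 0.05 in a two-sided Wald z test with Benjamini-Hochberg adjustment over all 12977 genes, and every adjusted p below is of that kind. The SE leaves out the variance of the shared scramble mean. A larger SE, the root of the summed squared SEs, counts it in both tables, and list counts that it moves by over 1.5 times are given with both. Of the 12977 genes 43.7% were called (5674), 20.1% higher (2604) and 23.7% lower (3070) in shRNA 2. The counts of each list are read against these shares, and a share near them is not a result about the list. With the larger SE 1489 of the 12977 genes were higher and 2010 lower. List counts with that SE are read against these totals, since the larger SE lowers the counts of all genes too. Among the called genes 437 were at least 2-fold higher and 794 at least 2-fold lower, and 39 and 85 passed 4-fold. The median difference over all genes was -0.0033, and the middle of the distribution ran from -0.35 (25th percentile) to 0.31 (75th). Depth set what could be called: the median SE was 0.36 for the 2812 genes with a mean below 200, 0.17 for the 5018 between 200 and 1000, and 0.11 for the 5147 above, and 23.5%, 41.9% and 56.6% of them were called. The lists were not matched for the mean, so a list of abundant genes is to be read against the 56.6% as well. In bulk RNA, fewer cells in a given state and less RNA per cell cannot be told apart, which holds for every level below.

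**Figure D1:**
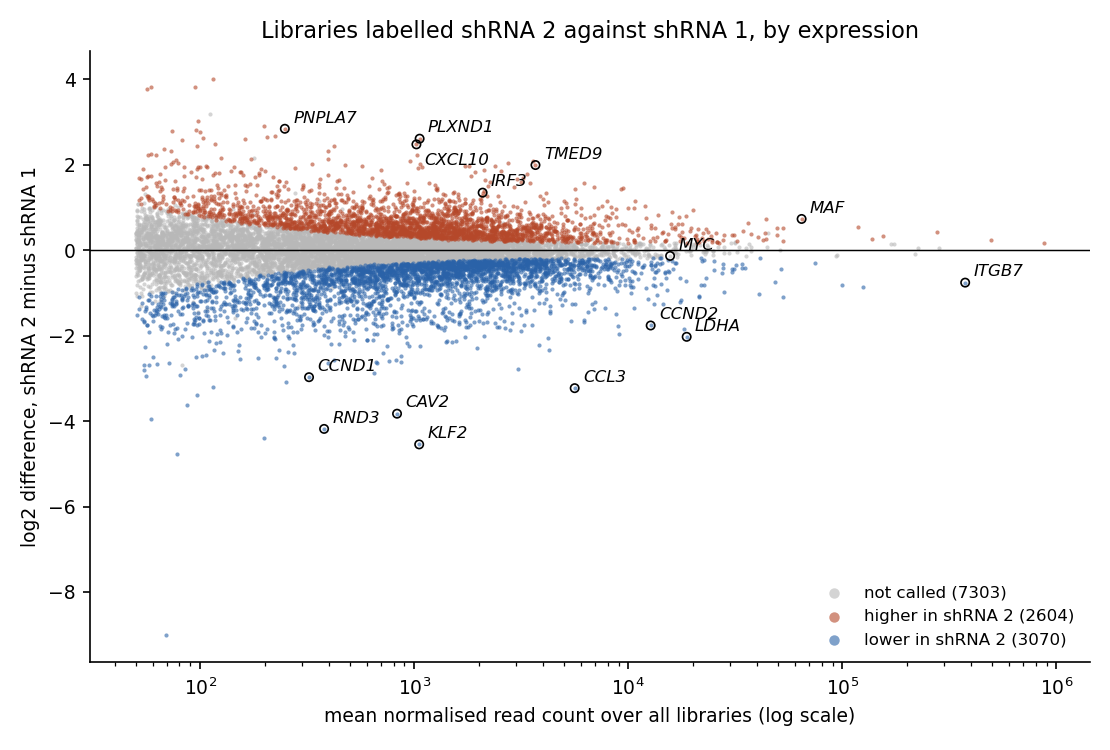
Log2 difference between the libraries labelled shRNA 2 and shRNA 1 (vertical axis) against the mean normalised read count over all libraries (horizontal, log scale), 1 point per gene, for 12977 genes. Red points were called higher in shRNA 2 (2604), blue points lower (3070) and grey points were not called, and the uncalled band narrows as the mean rises, and the lowest point is a processed pseudogene.

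The cell identity of the arms was checked on markers. All 10 plasma cell markers had a mean of at least 50, with summed rebuilt levels of 154188 in scramble, 112553 in shRNA 1 and 101017 in shRNA 2. Markers of myeloid cells, mature B cells, epithelial cells and fibroblasts had no member with a mean of 50, and their summed levels lay between 19.8 and 67.0 in every arm. T cell markers summed to 54.4, 117 and 69.9 with 1 of 4 above 50 (CD3E), and erythroid markers to 180, 153 and 99.6 with 1 of 2 above 50. None of these other marker sums exceeded 180 normalised counts in an arm.

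The cell division programme was lower in shRNA 2 than in shRNA 1, from the D-type cyclins through DNA replication to the spindle. Division starts when cyclin D kinases release E2F transcription factors from RB family proteins. E2F then drives the replication genes, and mitotic genes follow later through the DREAM and MuvB complexes, which bind the cell cycle homology region (CHR) of their promoters. Of 53 DNA replication genes 50 were lower in shRNA 2 and 0 higher, with a median of -1.26. Of 67 mitosis and spindle genes 66 were lower and 0 higher, with a median of -1.52. The medians stand beside -0.0033 over all genes, and the shares beside 23.7% lower. Relative to scramble, in the authors' deposited tables, the replication genes had a median of -0.29 with shRNA 1 and -1.53 with shRNA 2, and the mitotic genes -0.24 and -1.71.

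The promoters of 4 such genes are printed because they carry the short words of these pathways and come from genes that differed between the hairpins. They are the 250 bases before a RefSeq start of each gene, on GRCh38.p14, 5′ to 3′ on the gene's own strand. For HMMR these bases lie inside the GENCODE 29 interval of the gene (163460203 to 163491945), which begins further upstream. In PCNA and MCM6, the sliding clamp and a subunit of the replicative helicase, capitals mark an E2F word (TTTCCCGC or TTTGGCGC, either strand). In HMMR, a spindle protein, and CDK1, the kinase of mitotic entry, capitals mark the CHR word TTTGAA on either strand.
PCNA, chr20:5126623-5126872, minus strand: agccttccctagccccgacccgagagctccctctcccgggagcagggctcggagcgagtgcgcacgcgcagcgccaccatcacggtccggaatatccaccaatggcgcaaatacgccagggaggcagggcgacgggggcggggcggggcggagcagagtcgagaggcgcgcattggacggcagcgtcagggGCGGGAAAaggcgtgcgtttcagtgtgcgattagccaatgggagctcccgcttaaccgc
MCM6, chr2:135876444-135876693, minus strand: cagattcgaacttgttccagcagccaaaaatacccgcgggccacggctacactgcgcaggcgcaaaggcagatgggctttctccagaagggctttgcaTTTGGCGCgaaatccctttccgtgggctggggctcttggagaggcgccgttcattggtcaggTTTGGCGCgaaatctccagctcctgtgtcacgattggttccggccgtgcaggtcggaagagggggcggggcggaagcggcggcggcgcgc
HMMR, chr5:163460382-163460631, plus strand: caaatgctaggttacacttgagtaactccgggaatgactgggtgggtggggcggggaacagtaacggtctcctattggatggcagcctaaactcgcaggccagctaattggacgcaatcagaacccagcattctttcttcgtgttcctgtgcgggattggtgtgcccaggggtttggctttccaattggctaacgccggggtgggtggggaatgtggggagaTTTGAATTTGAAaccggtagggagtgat
CDK1, chr10:60778081-60778330, plus strand: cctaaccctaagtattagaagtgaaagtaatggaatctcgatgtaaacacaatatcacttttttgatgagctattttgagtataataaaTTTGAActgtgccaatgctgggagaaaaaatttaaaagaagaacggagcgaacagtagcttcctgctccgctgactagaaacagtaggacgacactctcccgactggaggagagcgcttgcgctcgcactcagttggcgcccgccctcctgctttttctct

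The word in PCNA lies 59 bases before the start, and MCM6 holds 2, at 152 and 90 bases before it. HMMR holds 2 CHR words within the last 28 bases, and the word of CDK1 lies 161 bases before the annotated start. Over the 9725 of 12977 genes with a promoter in the table, 3.16% held an E2F word and 8.42% a CHR word. Among the DNA replication genes 13 of 46 held an E2F word (28.3%) and 2 of 46 a CHR word (4.35%). Among the mitotic genes the order was reversed, with 3 of 56 holding an E2F word (5.36%) and 29 of 56 a CHR word (51.8%). The word CCAAT, on either strand, was in 35.7% of all promoters, 58.7% of the replication set and 64.3% of the mitotic set. Replication genes holding an E2F word had a median difference of -1.40, and those without it -1.17. Mitotic genes with and without a CHR word had medians of -1.49 and -1.56. A match of letters is a description of the promoter and shows no binding.

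At the entry to the cycle, the D-type cyclins were lower. CCND2, a D cyclin that MAF induces, had rebuilt means of 16762, 16527 and 4868 normalised counts in scramble, shRNA 1 and shRNA 2, so that shRNA 1 lay at the scramble level and shRNA 2 below both. The difference was -1.76 ± 0.099 (SE), 3.40-fold lower, with an adjusted p of 1.22e-67. CCND1 had rebuilt means of 428, 479 and 60.9 in the same order and was 7.85-fold lower (5.61 to 10.99), again with shRNA 1 near scramble. The activator E2F2 (-2.29 ± 0.13) and the repressor E2F7 (-2.24 ± 0.13), itself an E2F target, were also lower. WEE1, the kinase that holds CDK1 inactive, had rebuilt means of 1702, 2294 and 520.0 and a difference of -2.14 ± 0.14. Of 34 E2F, RB and cell cycle regulators 22 were lower and 4 higher, with a median of -0.74.

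The 4 higher regulators were RBL2 (0.67 ± 0.097), the RB family member of the DREAM complex in resting cells, CDK6 (0.42 ± 0.098), CDK7 (0.76 ± 0.21) and LIN37 (0.62 ± 0.22), a MuvB subunit; they are named because they were few, after their values were seen. The inhibitor CDKN1B was not called, at 0.094 ± 0.081 with a 95% interval of -0.065 to 0.25, and neither was E2F4, at -0.16 ± 0.11 (-0.37 to 0.047). CDKN1A, the inhibitor p21 and a p53 target, had rebuilt means of 1641, 2789 and 1409.7 and a difference of -0.98 ± 0.15, with shRNA 1 above scramble and shRNA 2 within 1.25-fold of it. MYC, the growth-promoting transcription factor, had rebuilt means of 14577, 16986 and 15464 and a difference of -0.14 ± 0.084 with an interval of -0.30 to 0.029, which was not called.

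At replication origins, CDC6, which loads the helicase, had rebuilt means of 1008, 858 and 138 and was 6.23-fold lower (95% interval 4.83 to 8.04). MCM4, a helicase subunit, had 6337, 5051 and 1218 and a difference of -2.05 ± 0.11, and MCM6 had 3297, 1939 and 734 and -1.40 ± 0.10. MCM6 was below scramble in both hairpin arms and lowest in shRNA 2, whereas for PCNA (means 4239, 4187 and 1541, difference -1.44 ± 0.094) shRNA 1 lay at scramble. CHAF1B, a subunit of the chromatin assembly factor that deposits histones behind the fork, had 1365, 1059.6 and 189 and a difference of -2.49 ± 0.16. The 3 replication genes that were not called were MCM7 (-0.057 ± 0.094, interval -0.24 to 0.13), DNMT1, which copies DNA methylation (0.072 ± 0.086, -0.096 to 0.24), and RPA2, which coats single-stranded DNA (0.20 ± 0.12) and was named after its value was seen, to complete the 3. For MCM7 and DNMT1 the intervals exclude a 1.25-fold difference either way, and both lay below scramble in both arms (5279, 3675 and 3533 for MCM7).

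In mitosis, HMMR had rebuilt means of 916, 1449.7 and 237 in scramble, shRNA 1 and shRNA 2 and was 6.11-fold lower (4.74 to 7.87). BUB1 (-1.71 ± 0.12) and BUB1B (-1.74 ± 0.15), kinases of the spindle checkpoint, NCAPG, a condensin subunit (-1.80 ± 0.14), and CDK1 (-1.80 ± 0.14) differed by similar amounts. BUB1 had rebuilt means of 3903, 3597 and 1101, near scramble in shRNA 1 and far below in shRNA 2. The phosphatase CDC25C, which activates CDK1, was the 1 mitotic gene not called (-0.39 ± 0.29, -0.95 to 0.18); with means of 271, 128 and 97.8 it was low in both hairpin arms.

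**Figure D2:**
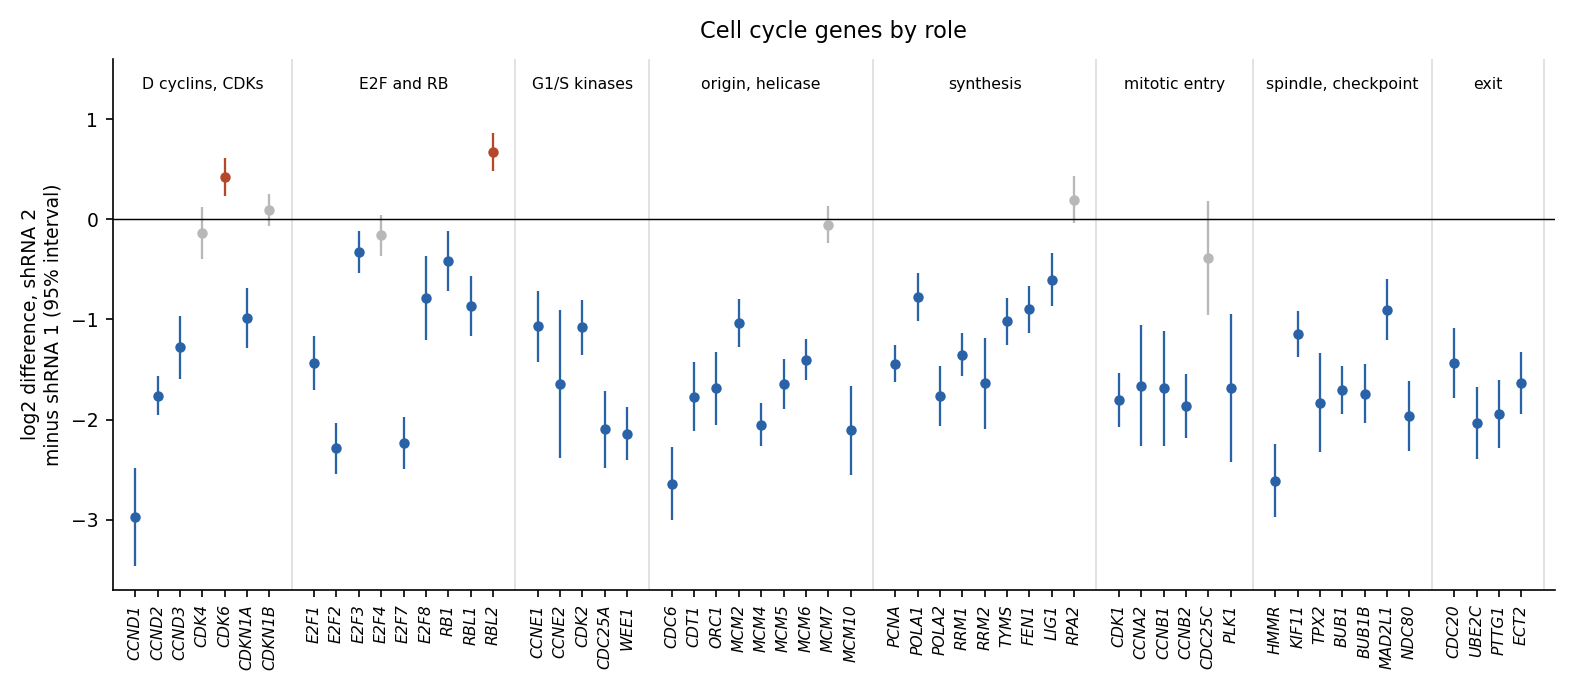
Log2 difference between shRNA 2 and shRNA 1 with its 95% interval for 56 cell cycle genes, picked from the lists for their role and grouped along the horizontal axis from D cyclins to mitotic exit. Blue genes were called lower in shRNA 2, red genes higher (CDK6, RBL2) and grey genes not called; CCND1 sits lowest at -2.97, and MCM7 lies on the zero line among lower helicase genes.

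Repair genes that act on replication forks were lower as well. Of 35 genes of homologous recombination and the Fanconi pathway, which mends crosslinks and broken forks, 27 were lower and 0 higher, with a median of -0.93. FANCI had rebuilt means of 4138, 2969.9 and 1198 and a difference of -1.31 ± 0.11, and BRCA1 had 1431, 1354 and 532 and -1.35 ± 0.13. UBE2T, the ubiquitin-conjugating enzyme of the pathway (-1.71 ± 0.18), XRCC2, a recombination protein (-1.52 ± 0.16), and the exonuclease EXO1 (-1.46 ± 0.16) were lower too. The nucleases FAN1 (0.14 ± 0.11, -0.083 to 0.37) and MRE11 (0.26 ± 0.12, adjusted p = 0.0663) were not called. Of 37 replication-dependent histone genes only 6 reached a mean of 50 in this poly(A)-enriched RNA, of which 3 were lower (HIST2H2BE, HIST1H1C and HIST1H2BK, from -1.33 to -2.93) and 0 higher; most such messages lack a poly(A) tail.

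Targets of p53 were split. Of 35 members 12 were higher and 6 lower, with a median of 0.11. XPC, a DNA damage recognition protein, had rebuilt means of 1693, 1302 and 3386 and was 2.60-fold higher in shRNA 2 (2.23 to 3.02). BBC3, the proapoptotic protein PUMA, had 631, 704 and 1653 and a difference of 1.23 ± 0.15. SESN2 (1.29 ± 0.17), ZMAT3 (1.16 ± 0.17) and the antiproliferative gene BTG1 (1.00 ± 0.092) were higher. For BBC3 the shRNA 1 level was near scramble, while SESN2 and BTG1 lay below scramble in shRNA 1 and above it in shRNA 2. CDKN1A, above, went the other way, and CCNG1 (-0.031 ± 0.094) and TP53INP1 (-0.054 ± 0.088) were not called.

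Single genes with the largest differences came next. KLF2, a transcription factor that restrains lymphocyte activation and directs plasma cell homing (chromosome 19, 16324817 to 16327874), had rebuilt means of 1009.9, 2065 and 88.3 in scramble, shRNA 1 and shRNA 2. It lay above scramble in shRNA 1 and far below in shRNA 2, and was 23.4-fold lower in shRNA 2 (95% interval 18.2 to 30.1, adjusted p = 6.70e-129). RND3, an atypical small GTPase, showed the same order with 341, 755 and 41.5 and a difference of -4.18 ± 0.25. CLU, the secreted chaperone clusterin, had 2877, 5475 and 792 and a difference of -2.79 ± 0.13.

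CAV2, a caveolin, had rebuilt means of 1396, 1024 and 72.1 and was 14.2-fold lower. The chemokine CCL3, which myeloma cells secrete and which activates osteoclasts, had 11077, 5216 and 556 and was 9.38-fold lower (7.98 to 11.03); its close copy CCL3L1 makes the split of reads between them an estimate. CCL3 was thus below scramble in both arms and lowest in shRNA 2. GPRC5D, a plasma cell surface receptor and the target of antibody and CAR T cell therapies, had 1260.4, 877 and 146 and was 6.002-fold lower (4.78 to 7.53). The remaining genes among the 14 lowest with a mean of at least 200 were ST8SIA2 (-3.09), ZNF367 (-2.88), MAP2 (-2.71), MAL2 (-2.64) and 4 already described or described below (CCND1, CDC6, HMMR and SPRED2).

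On the other side, PNPLA7, a lysophospholipase, had rebuilt means of 157, 72.0 and 516 and was 7.16-fold higher in shRNA 2 (5.07 to 10.1). PLXND1, a semaphorin receptor, had 736, 344 and 2098 and a difference of 2.61 ± 0.17. Both lay below scramble in shRNA 1 and above it in shRNA 2. CXCL10, a chemokine induced by interferon and by IRF3, had 387, 409 and 2274 and a difference of 2.48 ± 0.42; shRNA 1 was at the scramble level and shRNA 2 alone was high, with the widest interval of these genes (1.66 to 3.29). CX3CR1, the fractalkine receptor (248, 156 and 782), and LIMD2 (117, 177 and 709) were also above scramble in shRNA 2. NPIPB6 (2.66) belongs to a family of near-identical copies, which makes its value uncertain.

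A further set among the highest genes had a level near scramble in shRNA 2. LRP10, a lipoprotein receptor family member, had rebuilt means of 4670.3, 1153 and 4909, with shRNA 2 at scramble and shRNA 1 far below it. NOP10, a small nucleolar RNP protein, had 1266, 309 and 1306, TRIM44 had 3708, 886 and 3659, and RSU1, of integrin adhesions, had 1370.0, 359.9 and 1456, all in the same order. TMED9, a cargo receptor between the endoplasmic reticulum and the Golgi, had 5168, 1182 and 4701 and was 3.98-fold higher in shRNA 2 (3.51 to 4.51, adjusted p = 4.42e-100). In these 5 genes shRNA 1 was below scramble and shRNA 2 within 1.25-fold of it. The phosphoglucomutase PGM1 had 1587, 263 and 1236, below scramble in both arms and lowest in shRNA 1. Counted with a 1.25-fold limit on the rebuilt means, shRNA 1 was below scramble for 12 of the 14 highest genes, while shRNA 2 was near it for 5, above it for 8 and below it for 1 (PGM1). Of the 14 lowest genes shRNA 2 was below scramble for 14, and shRNA 1 near it for 5, above it for 5 and below it for 4.

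**Figure D3:**
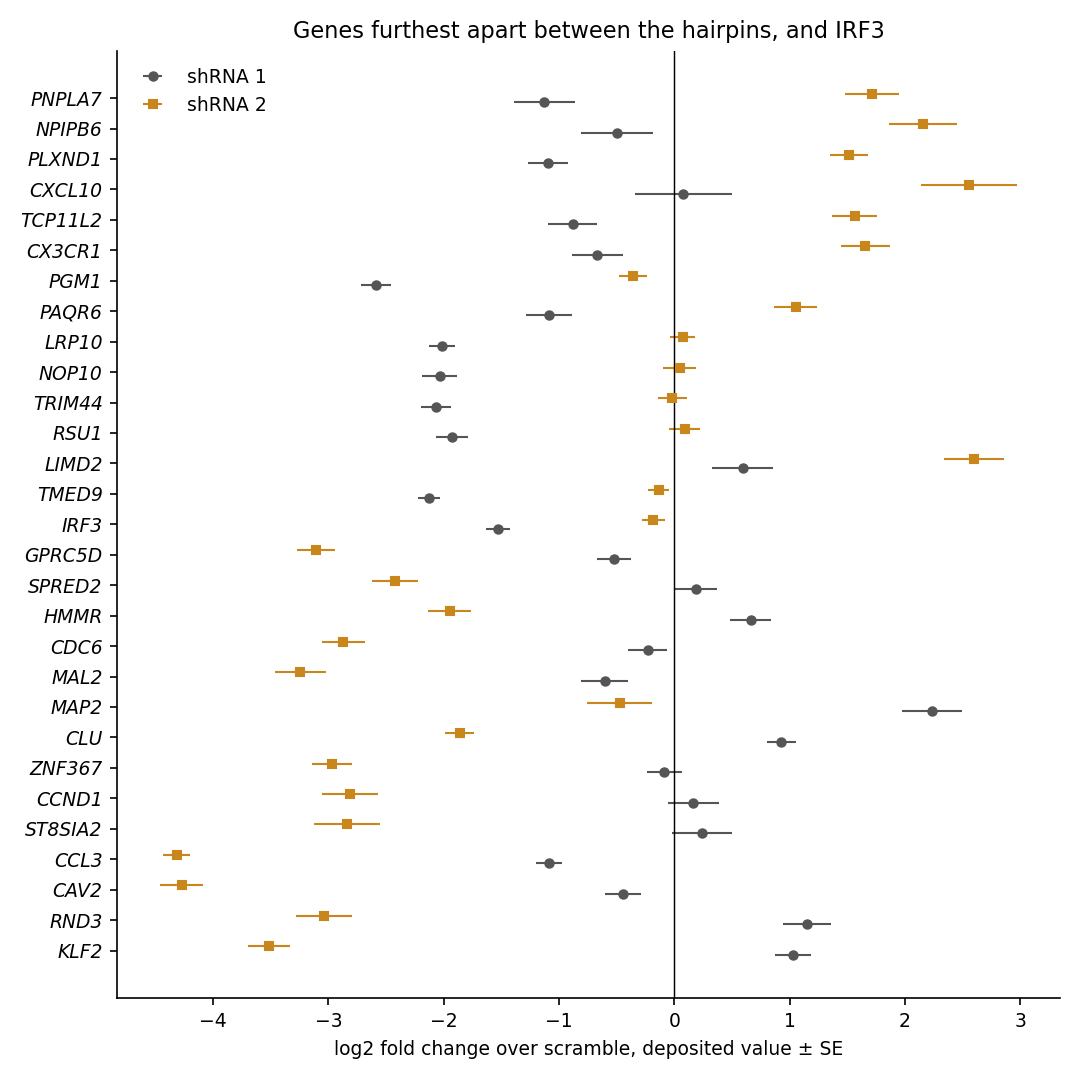
Deposited log2 fold change over scramble (horizontal axis, ± SE) with shRNA 1 (grey circles) and shRNA 2 (orange squares) for the 14 genes highest and 14 lowest in the difference with a mean of at least 200, and for IRF3. Several of the highest genes had shRNA 2 on the zero line and shRNA 1 near -2 (LRP10, NOP10, TRIM44, RSU1, TMED9), and for the 14 lowest genes shRNA 2 lies to the left of shRNA 1.

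Some genes passed the authors' test against scramble with both hairpins but in opposite directions. The 6 higher in shRNA 2 with the largest smaller change were PNPLA7, PLXND1, PAQR6 (2.14 ± 0.19), GRIN3B (3.81 ± 0.61), TM7SF2 (1.97 ± 0.17) and ITIH4 (2.77 ± 0.37). TM7SF2, a sterol reductase, had rebuilt means of 482, 249 and 975. The 6 lower were KLF2, RND3, IGSF1 (-2.64 ± 0.45), VLDLR (-2.23 ± 0.23), MAB21L4 (-2.37 ± 0.29) and EFEMP1 (-2.51 ± 0.38). VLDLR, a lipoprotein receptor that ATF4 induces, had 228, 485 and 103, above scramble in shRNA 1 and below it in shRNA 2. GRIN3B and IGSF1 rest on low levels, with rebuilt means of 42.0, 8.93 and 125 and 53.6, 138 and 22.1.

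Genes that the ERK kinase pathway induces were lower in shRNA 2. ERK activity is read out by feedback inhibitors, the DUSP phosphatases and the SPRED and SPRY proteins, and by ETS factors. Of 14 members 11 were lower and 1 higher, with a median of -1.0004. DUSP6, the ERK-specific phosphatase, had rebuilt means of 1044, 1208 and 203 and was 5.96-fold lower (4.90 to 7.25). DUSP4 had 4097, 4402 and 1305 and SPRED2 855, 972 and 159, and for each shRNA 1 lay near scramble. The ETS factor ETV5 had the largest difference of the list, -4.40 ± 0.79, from means of 251, 332 and 15.7. The 1 higher member was DUSP5 (0.61 ± 0.089); ETV5 and DUSP5 are named because they were the extremes of the list, after their values were seen. SPRED1 (-0.23 ± 0.12, -0.46 to 0.0041) and SPRY1 (-0.55 ± 0.25, adjusted p = 0.0667) were not called.

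Immediate early genes, which growth factor and stress signals induce within minutes, were lower for 16 of 25 and higher for 3, with a median of -0.51. JUN, an AP-1 subunit, had rebuilt means of 2451, 4673 and 1269.5, above scramble in shRNA 1 and below it in shRNA 2, with a difference of -1.88 ± 0.11. Its partners FOS (-1.68 ± 0.15) and FOSB (-2.21 ± 0.20) and the stress factor ATF3 (-1.36 ± 0.14) were lower. IER2 was not called (-0.016 ± 0.23, -0.47 to 0.44).

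Glycolytic genes were lower in shRNA 2 than in shRNA 1. Of 25 glycolytic genes 17 were lower in shRNA 2 and 2 higher, with a median of -0.53. LDHA, which reduces pyruvate to lactate, had rebuilt means of 16632, 31788 and 7791 and was 4.08-fold lower (3.67 to 4.53), with shRNA 1 above scramble and shRNA 2 below. ENO1 (18866, 30554 and 14637) and GAPDH (44252, 77529 and 36278) had the same order with differences of -1.06 ± 0.076 and -1.10 ± 0.090. PKM (-1.05 ± 0.082) and GPI (-0.82 ± 0.078) were lower, and PFKM was not called (0.096 ± 0.080, -0.061 to 0.25). In the wider hypoxia list 11 of 26 were lower and 6 higher, with a median of -0.25. The prolyl hydroxylases of collagen P4HA1 (-1.43 ± 0.13) and P4HA2 (-1.33 ± 0.21) and the lysyl hydroxylase PLOD2 (-1.42 ± 0.13) were lower, while TXNIP, an inhibitor of glucose uptake, was higher (0.97 ± 0.082). PLOD2 had rebuilt means of 601, 1673 and 626, with shRNA 2 at scramble. VEGFA, the angiogenic factor, was not called (0.016 ± 0.10, -0.18 to 0.21).

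Respiration and lipid synthesis were compared next. Nuclear genes of oxidative phosphorylation were lower for 24 of 52 and higher for 5 (18 and 2 with the larger SE), with a median of -0.19. The 55.8% called in all lay near the 56.6% of genes with a mean above 1000. The complex III subunit UQCRQ led with -1.20 ± 0.11, and SDHA was not called (-0.11 ± 0.074). Of 13 protein genes of the mitochondrial genome 4 were higher and 1 lower (2 and 1 with the larger SE), with a median of 0.068, among them ND1 (0.34 ± 0.064) and ND6 (-0.29 ± 0.078). The 38.5% called in all lay below the 43.7% over all genes. ATP8 (adjusted p = 0.0177) and COX1 (0.0391) lose their call with the larger SE.

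Cholesterol synthesis had 13 of 29 genes lower and 2 higher (8 and 2 with the larger SE), with a median of -0.23. The late enzyme EBP was lower (means 1836, 1389.8 and 429, difference -1.69 ± 0.14), and LSS was not called (0.046 ± 0.10, -0.16 to 0.25). Of 15 fatty acid genes 8 were lower and 2 higher, with a median of -0.36. FADS1, a desaturase, had rebuilt means of 1049, 398 and 106, falling in order from scramble to shRNA 1 to shRNA 2, with a difference of -1.91 ± 0.21. SCD (6961, 2999 and 1683) had that order too. SREBF1, which encodes their transcription factor, was at 0.25 ± 0.11 with an adjusted p of 0.0524, and was called only after the median gene was set to 0.

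The ATF4 list holds ATF4 itself and target genes, among them genes of amino acid supply. Of its 29 members 14 were lower and 5 higher (9 and 4 with the larger SE), with a median of -0.30. PSAT1, of serine synthesis, had rebuilt means of 629, 550.4 and 92.3 and was 5.96-fold lower (4.50 to 7.89). The glutamine carrier SLC1A5 had 5467, 6588 and 2711 and a difference of -1.28 ± 0.089, and the arginine carrier SLC7A1 -0.998 ± 0.14. SLC38A2 (-0.058 ± 0.086) and the aminoacyl-tRNA synthetase EPRS (0.067 ± 0.081) were not called.

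Genes of antigen presentation through class II were lower in shRNA 2 than in shRNA 1. Class II molecules show peptides to CD4 T cells, and plasma cells normally express little of them. Of 17 members 11 were lower and 3 higher, with a median of -1.04. HLA-DPA1 had rebuilt means of 1084, 2571 and 580.3 and was 4.43-fold lower (3.77 to 5.21). HLA-DRA had 5873, 10472 and 4514 with a difference of -1.21 ± 0.092, and HLA-DRB1 had 993, 2247 and 812 with -1.47 ± 0.12. In each, shRNA 1 stood above scramble, and shRNA 2 was below it for HLA-DPA1 and HLA-DRA and within 1.25-fold of it for HLA-DRB1. The class II genes are highly alike and polymorphic, so the assignment of reads among them is an estimate. HLA-DMA (-0.16 ± 0.15, -0.45 to 0.13) and the promoter factor RFXANK (0.091 ± 0.12, -0.14 to 0.33) were not called. Class I genes were balanced, with 7 of 21 higher, 7 lower and a median of -0.019. HLA-B was lower (-0.48 ± 0.078), and the proteasome activator subunit PSME1 was higher (0.73 ± 0.095).

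The plasma cell programme was split. Of 34 members 10 were higher and 13 lower, with a median of -0.11. Besides CCND2 and GPRC5D, the strongest difference was in TNFRSF17, the BCMA receptor of survival signals and a therapy target, with rebuilt means of 5145, 4150.5 and 1567 and a 2.65-fold lower level (2.31 to 3.04). ITGB7, an integrin that MAF induces, had 381280.0, 467442 and 276011 and a difference of -0.76 ± 0.082. SEC11C, of the signal peptidase, was lower as well (-0.80 ± 0.081). The highest difference of the list was 0.76, in TNFRSF13B, deposited at -1.14 ± 0.11 over scramble with shRNA 1 and -0.37 ± 0.11 with shRNA 2. Among the 10 plasma cell markers 2 were higher and 4 lower. The surface markers CD38 (deposited 0.27 ± 0.15 and 0.89 ± 0.15) and SLAMF7 (-1.23 ± 0.094 and -0.63 ± 0.094) stood higher with shRNA 2. These 3 genes were named after their values were seen.

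The master regulators IRF4, PRDM1 and XBP1 differed by less than 2-fold. IRF4, on which myeloma cells depend, had rebuilt means of 17637, 7613 and 4823, below scramble in both arms and lower in shRNA 2, with a difference of -0.66 ± 0.084. XBP1, the secretory regulator, had 21049, 11803 and 9461 and a difference of -0.32 ± 0.092 (adjusted p = 0.00195), which loses its call with the larger SE (adjusted p = 0.0515). PRDM1, which ends the B cell programme, had 11026, 7595 and 6964 and was not called, at -0.13 ± 0.093 with an interval of -0.31 to 0.058. All 3 lay below scramble with both hairpins, by larger steps than the step between the hairpins. The surface marker SDC1 was at -0.47 ± 0.094, and MZB1 (-0.13 ± 0.080) and PIM2 (-0.049 ± 0.079) were not called.

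**Figure D4:**
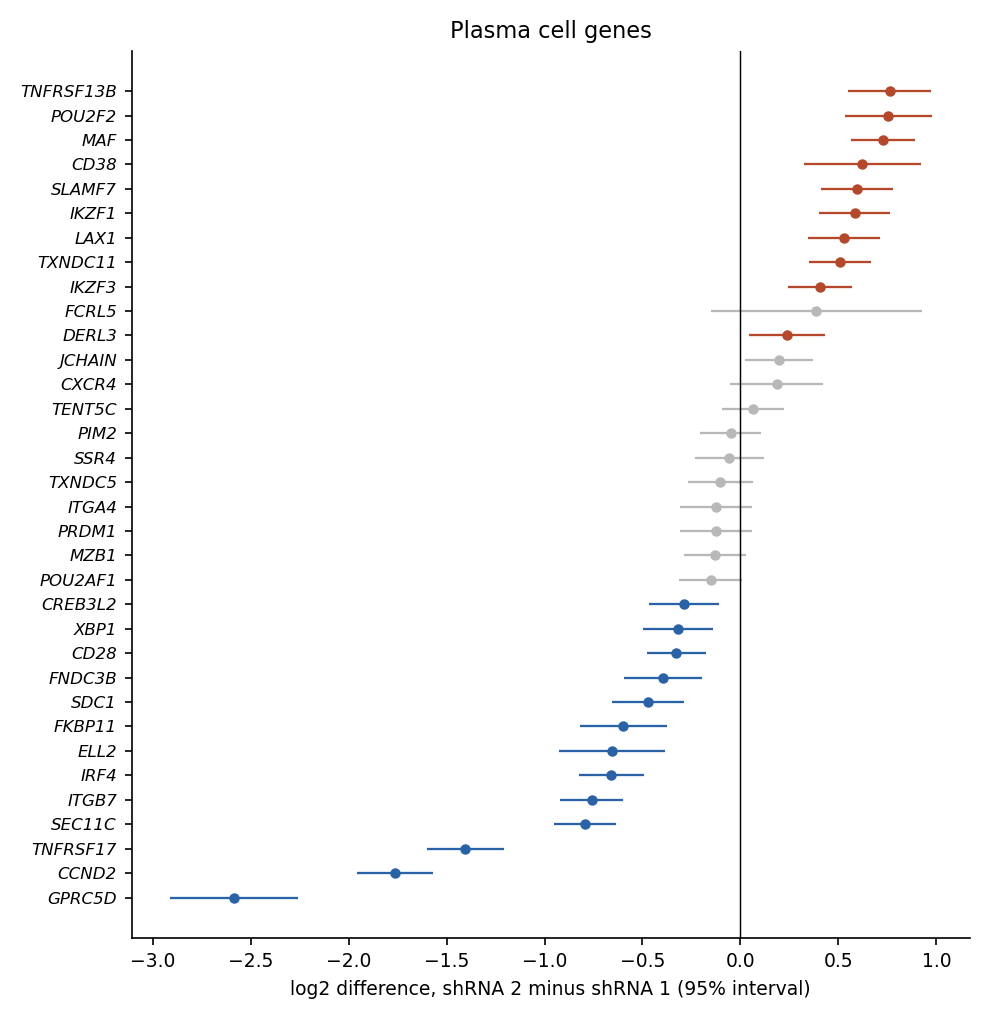
Log2 difference between shRNA 2 and shRNA 1 (horizontal axis) with its 95% interval for the 34 plasma cell genes, sorted by value. Red genes were called higher in shRNA 2 (10), blue genes lower (13) and grey genes not called (11), and GPRC5D at -2.59 lies furthest from 0.

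The MAF list holds MAF itself, which MM.1S overexpresses through a chromosomal translocation, MAFG, MAFK and genes that MAF induces. Of its 13 members 7 were lower and 4 higher, with a median of -0.28. RND3, CCND2 and ITGB7 were among the lower, and CX3CR1 and DEPTOR, an mTOR inhibitor (means 10545, 6476 and 12899, difference 0.99 ± 0.078), among the higher. MAF, counted among the 4 higher, differed by 0.73 ± 0.083, with rebuilt means of 50798, 53699 and 89069. It was named after its value was seen, because its targets are described. ARID5A was not called (-0.074 ± 0.074, -0.22 to 0.072).

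In the secretory pathway, unfolded protein response genes were lower for 14 of 34 and higher for 6 (9 and 2 with the larger SE), with a median of -0.061. The chaperone HSPA5 (-0.66 ± 0.080), its cofactor DNAJB11 (-0.66 ± 0.094), the disulfide isomerase PDIA6 (-0.68 ± 0.077) and the translocon subunit SEC61B (-0.84 ± 0.11) were lower, CALR was higher (0.50 ± 0.070), and PDIA4 (0.067 ± 0.086) and EDEM1 (0.055 ± 0.074) were not called. Among 9 p24 cargo receptors of COPI and COPII vesicles, TMED9 included, 3 were higher and 3 lower. TMED5 was higher (means 1685, 788 and 1328, difference 0.75 ± 0.12), TMED10 lower (means 2763, 2506 and 1326, difference -0.92 ± 0.11) and TMED7 not called (0.043 ± 0.12, -0.19 to 0.28). The proteasome moved in 1 direction: 28 of 36 genes of its subunits and assembly factors were lower and 0 higher, with a median of -0.51. PSMD14, the deubiquitinase of the lid, had rebuilt means of 2109, 2338 and 971 and a difference of -1.27 ± 0.11, and the core subunits PSMB2 (-0.81 ± 0.085), PSMB4 (-0.69 ± 0.081) and PSMB6 (-0.79 ± 0.11) were lower. PSMD11 (-0.029 ± 0.095, -0.21 to 0.16) and PSMD3 (-0.11 ± 0.084) were not called.

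Ribosomal protein genes leaned the other way by small steps. Of 81 genes 39 were higher and 4 lower, with a median of 0.17. With the larger SE 20 were higher. The 53.1% called in all lay near the 56.6% of genes with a mean above 1000. RPS2 had rebuilt means of 16318, 15022 and 28621 and a difference of 0.93 ± 0.080, RPL18 0.62 ± 0.071 and RPS27 0.61 ± 0.096, while RPL8 (0.0016 ± 0.068, -0.13 to 0.13) was not called. These genes have many processed copies, which makes single values uncertain. Ribosome biogenesis factors were balanced, with 6 of 41 higher, 8 lower (3 and 2 with the larger SE) and a median of 0.0035. The 34.1% called in all lay below the 43.7% over all genes, so only single genes are described. DDX21 (0.70 ± 0.090) and PES1 (0.64 ± 0.089) were higher, NOP56 (-0.48 ± 0.10) lower, and NPM1 (-0.029 ± 0.071) and NCL (-0.025 ± 0.080) not called.

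**Figure D5:**
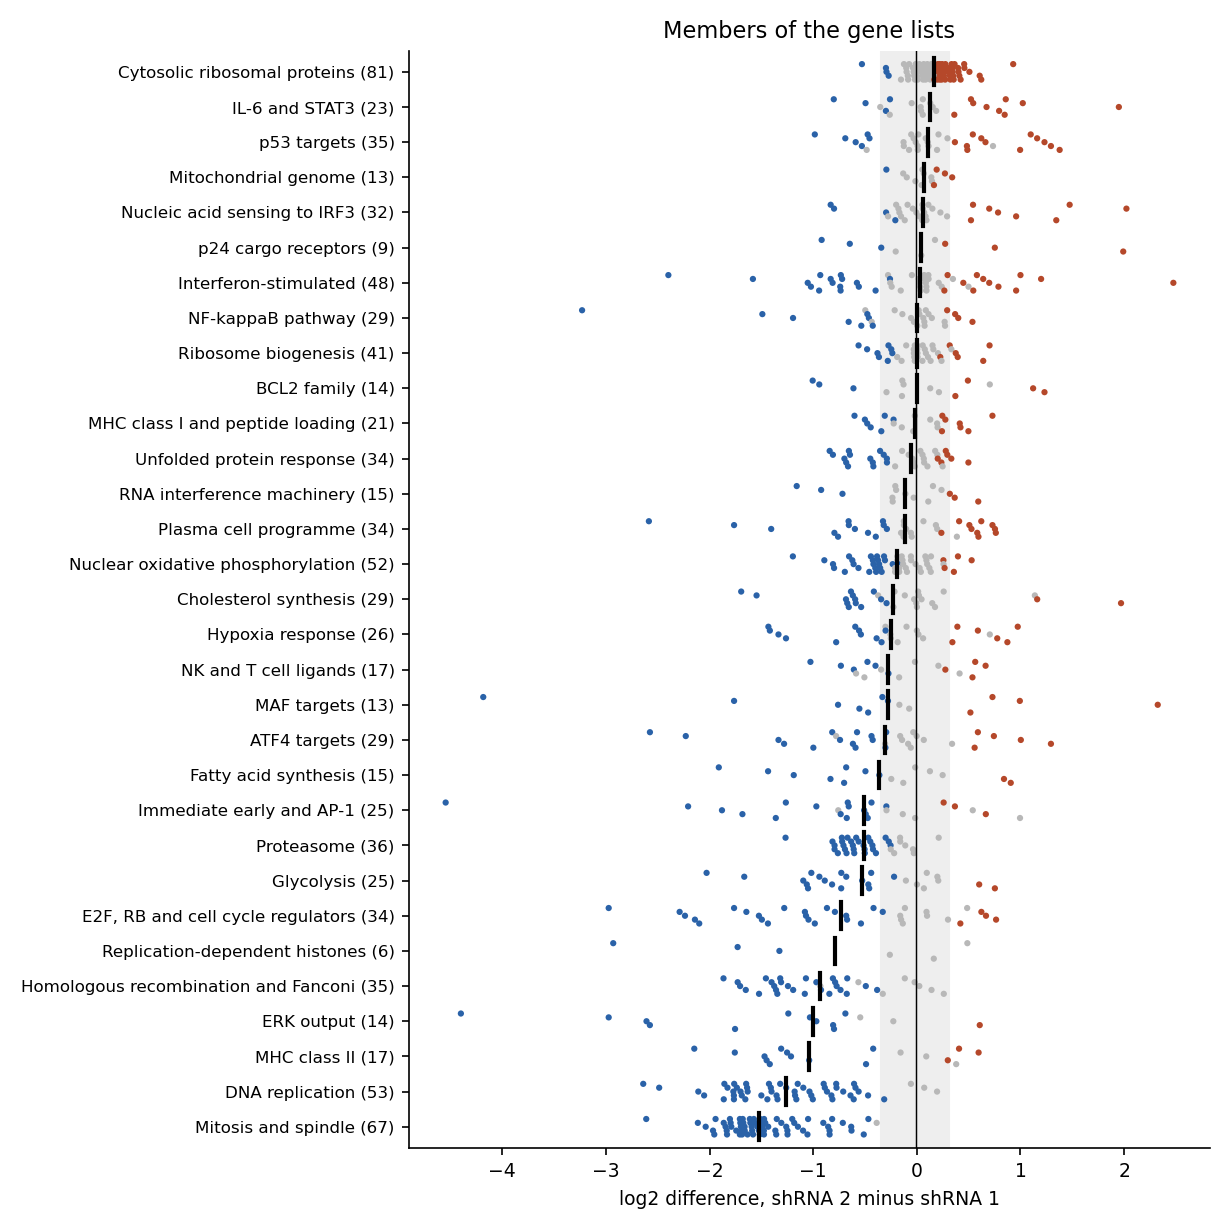
Log2 difference between shRNA 2 and shRNA 1 (horizontal axis) for each member of 31 gene lists, 1 row per list with its number of members, ordered by median (black bar). Red points were called higher, blue lower and grey not called; the band spans the 25th to 75th percentile of all 12977 genes (-0.35 to 0.31), and the mitosis and DNA replication lists lie almost wholly to its left.

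The pathway of the target itself was compared by role. Upstream, adaptors and kinases carry the signal of nucleic acid sensors and Toll-like receptors to IRF3 and NF-kappaB. Of 32 genes of this route, with IRF3 itself among them, 8 were higher in shRNA 2 and 4 lower, with a median of 0.056. The 37.5% called in all lay near the 43.7% over all genes, so only single genes are described. Besides IRF3, the adaptor MYD88 had rebuilt means of 809, 389 and 1080.5 and was 2.78-fold higher (2.26 to 3.42), the kinase IRAK1 had 8191, 4291 and 7388 and 0.78 ± 0.090, and MAVS, the adaptor of the RNA sensors, 3903, 2338 and 3404 and 0.54 ± 0.086. In all 3 genes shRNA 1 was the low arm, as for IRF3. IRF5 (0.15 ± 0.080, -0.0065 to 0.31) and TLR4 (-0.17 ± 0.13, -0.42 to 0.084) were not called.

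Downstream, interferon-stimulated genes were called in both directions, with 12 of 48 higher, 16 lower and a median of 0.034, beside 20.1% higher and 23.7% lower over all genes. With the larger SE 5 were higher and 11 lower. CXCL10 was the highest of them. The sensor of double-stranded RNA OAS3 (means 389, 521 and 174, difference -1.58 ± 0.19), the kinase EIF2AK2 (means 2090.4, 2519 and 1416, difference -0.83 ± 0.10) and the GTPase GBP2 (means 143, 203 and 38.5, difference -2.40 ± 0.33) were lower. TRIM25 (means 7856, 4995 and 7788, difference 0.64 ± 0.083) and the RNA editor ADAR (means 15609.5, 9175 and 13712, difference 0.58 ± 0.076) were higher, both with shRNA 1 below scramble. IRF1 (0.071 ± 0.085, -0.096 to 0.24) and IFI16 (0.028 ± 0.084, -0.14 to 0.19) were not called.

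In the NF-kappaB list 8 of 29 were lower and 4 higher (5 and 2 with the larger SE), with a median of 0.0046. These shares lie near the 23.7% and 20.1% over all genes, so only the single genes are described. Its chemokines CCL3 and CCL5 (means 793, 994 and 354, difference -1.49 ± 0.15) were lower, as were NFKB2 (-0.43 ± 0.086) and the kinase MAP3K14 (-0.48 ± 0.11) of the noncanonical arm, while NFKB1 was not called (0.15 ± 0.095, -0.041 to 0.33). The pathway of IL-6, a growth factor of myeloma cells, leaned higher, with 9 of 23 higher, 4 lower (7 and 2 with the larger SE) and a median of 0.13. Its receptor IL6R had rebuilt means of 10307, 8422 and 17109.7 and a difference of 1.02 ± 0.091, STAT3 had 1992, 1279.8 and 2320.1 and 0.86 ± 0.12, and JAK1 3582, 3776 and 5425 and 0.52 ± 0.090. The phosphatase PTPN6, which dampens this signal, was lower (means 5209, 6319.9 and 3627, difference -0.80 ± 0.10). The receptor subunit IL6ST went against IL6R, deposited at -0.43 ± 0.092 over scramble with shRNA 1 and -0.92 ± 0.092 with shRNA 2. It was named after its value was seen.

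Among 14 genes of the BCL2 family 4 were higher and 3 lower, with a median of 0.00078. The 50% called in all lay near the 43.7% over all genes, so only single genes are described. The proapoptotic BCL2L11 (BIM) had rebuilt means of 3800.1, 2789 and 6071, below scramble in shRNA 1 and above it in shRNA 2, and a difference of 1.12 ± 0.11. BBC3 and BCL2 (0.49 ± 0.092) were also higher, and the survival gene BCL2L1 (means 7581, 9949 and 6512, difference -0.61 ± 0.076) and BAD (-0.94 ± 0.13) lower. MCL1, on which myeloma cells rely, was not called (0.13 ± 0.069, -0.0067 to 0.27). Ligands of NK and T cells were lower for 6 of 17 and higher for 4 (3 and 4 with the larger SE), with a median of -0.27. These counts stand beside 23.7% lower and 20.1% higher over all genes, and the larger SE changed which direction held more. The DNAM-1 ligand PVR was lower (means 892, 1046 and 513, difference -1.03 ± 0.14) and the BTLA ligand TNFRSF14 higher (0.66 ± 0.096).

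The machinery that processes hairpins was compared because both arms load it. Of 15 RNA interference genes 3 were higher and 3 lower (1 and 3 with the larger SE), with a median of -0.11. These shares are near the 20.1% and 23.7% over all genes. DICER1, which cuts the hairpin, had rebuilt means of 2388, 2519 and 1532 and a difference of -0.72 ± 0.11, and DGCR8, the partner of DROSHA, 1698, 1725 and 909.5 and -0.92 ± 0.12. The silencing scaffolds went apart, with TNRC6C lower (-1.16 ± 0.17) and TNRC6A higher (0.59 ± 0.11). DROSHA was higher by 0.37 ± 0.12 and loses its call with the larger SE, and AGO1 was not called (-0.20 ± 0.11, -0.42 to 0.024). The part of any of these genes in the other differences was not tested.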

How the data were processed

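RNA sequencing of MM.1S cells gave 2 libraries each of scramble, IRF3 shRNA 1 and IRF3 shRNA 2, grouped by the hairpin that the labels give. Per the submitters' processing notes, the authors used Salmon 0.12.0, DESeq2 1.24.0 and GRCh38 (hg38). Their settings, the annotation and the strand use were not given in the sources used here. Because Salmon assigns shared reads by estimation, close copies and overlapping genes carry extra error. The authors deposited 2 tables of comparisons with scramble and their signal, a mean of normalised read counts over all libraries, was identical in both for all 33095 genes. The log2 fold changes and their SEs, the Wald score (fold change over SE, held to within 3.27e-07) and the p-values are as the authors deposited them. Values of single libraries were not analysed here, and the depth per library is unknown.

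Each deposited fold change is read as shRNA over scramble. IRF3 could not check this for shRNA 2, so the dispersions solved from each table were compared: their median absolute log ratio was 0.00371 as coded, 0.0264 with the shRNA 2 table turned, 0.0227 with the shRNA 1 table turned and 0.0295 with both turned. Arm means were rebuilt from the deposited mean and both fold changes, the dispersion was solved from both SEs, and the variance of the shared scramble mean was taken out of the difference. For 3 genes this gave no usable variance and the root of the summed squared SEs was kept. The median ratio of the SE used to that root was 0.71. The test was a two-sided Wald z with Benjamini-Hochberg adjustment over 12977 genes. Simulated counts served to check the rebuilt SE. Their dispersions were known, so they cannot show how the p-values hold with dispersions estimated from 2 libraries per arm. Python 3.11.15, pandas 2.3.3, NumPy 2.4.6, SciPy 1.17.1 and matplotlib 3.10.9 were used. All identifiers occur in GENCODE 29, which gave the coordinates; symbols are those deposited, for 11904 of the 12977 genes. Promoters are those of RefSeq (GRCh38.p14).

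Named genes were IRF3, BCL2L12, the 14 highest and 14 lowest called genes with a mean of at least 200, 6 genes each way with opposite deposited changes, from each list up to 5 members by lowest p and up to 2 uncalled ones by narrowest SE, and IRF4, PRDM1, XBP1, MYC, SDC1, CDKN1A, LDHA and KLF2. Immunoglobulin and T cell receptor segments, pseudogenes and unnamed genes were left out of the ranking, and some genes under this rule are not reported here. The members and the lists were chosen with earlier results of these data known. Lists are described by counts and medians, with no set test. Alternatives covered the SE, the threshold, a fold minimum, the filter on the mean, library sizes and recentring.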

Additional observations from a re-analysis of the deposited data

How the results depend on the processing

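The SE decides how many genes were called. With the root of the summed squared SEs, which counts the scramble libraries as error in both tables, 3499 genes were called, 1489 higher and 2010 lower, all 3499 among the 5674, and 20 ribosomal protein genes were higher. It moved the counts of 11 other lists by over 1.5 times, which stand beside them in the text, and a minimum mean of 200 so moved the lower histone genes (3 to 1) and the higher cholesterol genes (2 to 1). With an absolute log2 difference of at least 1 besides the adjusted p, 1231 genes were called, 437 higher and 794 lower. A threshold of 0.01, a minimum mean of 10 or 200, no minimum, unique symbols alone, library sizes estimated for the arms and recentring on the median gene kept each of these 3 counts within 1.5 times. Of 233 named genes the larger SE ended the call of 4 (ATP8, COX1, DROSHA and XBP1), and recentring added SREBF1 (adjusted p = 0.049). The larger SE and the estimated library sizes leave each difference as it is. Recentring takes off only the median of -0.0033, so the directions of the named genes were not put to a test. No paired analysis was possible because the tables hold no values of single libraries. For the same reason no library could be left out in turn, and the arms have 2 libraries each. Genes with a mean under 200 had a median SE of 0.36, against 0.11 above 1000.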

Other observations

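Classes of RNA that the lists do not cover differed slightly between the hairpins. The 352 lincRNA genes had a median difference of 0.16 (54 higher and 30 lower in the libraries labelled shRNA 2), the 455 antisense genes 0.14 (64 and 32) and the 142 processed transcripts 0.19 (37 and 7), beside -0.027 for the 11398 protein-coding genes (2346 and 2950). In that order 23.9%, 21.1%, 31.0% and 46.5% were called in either direction. Among all genes with a mean below 200 the share was 23.5%, and the classes were not matched for the mean. Over all genes 43.7% were called, 20.1% higher and 23.7% lower. Since the use of strand is not given, reads of an antisense gene and of its partner cannot be told apart. By chromosome the medians ran from -0.11 on chromosome 13 (26 of 215 higher and 59 lower) to 0.10 on chromosome 19 (227 of 866 higher and 169 lower). Chromosomes 16 and 17 had medians of 0.075 and 0.074. By GC content of the longest transcript, the median rose from -0.062 in the lowest of 5 equal classes of genes to 0.028 in the highest, and by its length from -0.051 to 0.024. The part of base composition and length in the differences between classes and chromosomes was not tested.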
